A study of Mus musculus with 6 samples.

Results

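The genes described here are 34 genes of meningeal fibroblasts and of the extracellular matrix, read from a table of 56923 genes in bulk RNA sequencing of mouse locus coeruleus punches. They were listed by name: collagens, small proteoglycans, matrix glycoproteins, and transporters, secreted factors and regulators known from the fibroblasts of the brain's covering membranes. All 34 were found in the table by Ensembl identifier, and 32 passed the filter used for testing. The study compared wild-type (WT) mice with 5xFAD mice. In that line human transgenes with familial Alzheimer's disease mutations are expressed from Thy1 regulatory sequence that is active in neurons. WT is represented by the libraries 62, 63 and 66 (n = 3) and 5xFAD by 64, 65 and 79 (n = 3), each from tissue punched out of vibratome slices. The sources used here do not give age, sex, background strain, treatment or batch. The column names of the libraries end in a running label whose order follows the groups, and its meaning is not stated. The library numbers are not stated to be separate animals. The p-values therefore measure the spread between these libraries, part of which may be technical.

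The meninges are layered membranes around the brain, and their fibroblasts also follow vessels into the tissue and form the stroma of the choroid plexus. These cells make fibrillar collagen, the small proteoglycans that bind to collagen fibrils, and retinoic acid and growth factors that act on the neighbouring brain. The outer arachnoid layer is a barrier that expresses organic ion and metabolite transporters. Brain tissue away from membranes and vessels has little fibrillar collagen. The locus coeruleus lies in the dorsal pons beside the fourth ventricle, close to choroid plexus, ependyma, meninges and cerebellum.

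The libraries held 15158712 to 20079349 reads assigned to genes. Values are normalized counts, the reads of a gene divided by 1 size factor per library, and 16411 genes with at least 10 in at least 3 libraries were tested. Thy1, whose sequence is part of the transgene cassettes, read 8755, 7976 and 9089.6 in WT against 21875, 16885 and 22211 in 5xFAD. The noradrenaline-synthesising enzyme Dbh read 2187, 2492 and 1281 in WT against 1879, 2895 and 2089.5 in 5xFAD, and 9 of 10 noradrenergic genes passed the filter, so the defining transcripts of the labelled nucleus were present. Hand1 was at 0 in all 6 libraries. Of 10 genes that mark meningeal fibroblasts, all 10 passed the filter. The libraries differed in transcripts of bordering tissue: Gabra6 of cerebellar granule cells was at 48.3 and 70.4 in WT 62 and 66 and at 341 or more in the other libraries, and Ttr of choroid plexus was at 1107 in WT 66 and at most 61.2 elsewhere.

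Most of the fibroblast and matrix genes had higher values in 5xFAD libraries, but none passed the test between genotypes. Of the 32 tested genes, 25 had higher and 7 had lower mean log2 values in 5xFAD, where 50.2% of all tested genes had higher values. Their median log2 ratio (the log2 fold change from limma, 5xFAD minus WT in mean log2(normalized count + 1)) was 0.28, against 0.000530 over all tested genes. Among lists of other cell types, this median was 0.69 for cerebellar granule cells (10 of 10 genes higher) and 0.20 for noradrenergic neurons (8 of 9). It was 0.089 for oligodendrocytes (10 of 10 higher), −0.068 for choroid plexus epithelium (1 of 9) and −0.27 for ependyma (1 of 10). The limma test, adjusted by Benjamini-Hochberg over all 16411 genes at 0.05, called 0 of the 32 (adjusted p = 0.9995 for each) and 0.00609% of all genes, namely Thy1 alone. The edgeR test also called 0 of the 32 and 0.00609% of all genes, DESeq2 called 0 of the 32 and 0.0244% of all genes, and the authors' deposited table has 0 of the 34 and 0.0106% of its genes at an adjusted p under 0.05. At an unadjusted p under 0.05 there were 5 of the 32 (15.6%), all higher in 5xFAD, where 2.32% of all tested genes reached that level, 1.27% with higher and 1.05% with lower values. They were Lum, Col1a1, Fmod, Col3a1 and Bgn. In Lum, Col1a1 and Fmod each 5xFAD library read higher than each WT library, which is 9.38% of the 32 genes, against 3.72% of all tested genes. No member had the opposite order, which 3.7% of all tested genes had. In bulk tissue, more fibroblasts in a punch and more RNA per fibroblast cannot be told apart.

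These counts depended on single libraries. The number at an unadjusted p under 0.05 was 11 without 5xFAD 79, 8 without WT 66, 3 without 5xFAD 64 and 2 without WT 62. Of all tested genes, 1.499% reached that level without 5xFAD 64 and 1.82% without WT 62. The number whose groups did not overlap was 12 without 5xFAD 79, 10 without WT 66, and 5 without either WT 63 or 5xFAD 65. With fewer libraries more genes separate by construction: without 5xFAD 79 the groups did not overlap in 18.95% of all tested genes, and 3.42% had an unadjusted p under 0.05. All 12 of the genes here that separated then were higher in 5xFAD, as were 9.46% of all tested genes. Without WT 63 and without 5xFAD 65, where 5 of the 32 genes (15.6%) separated, the shares of all tested genes that did so were larger, 23.8% and 17.5%. In each of these fits 4 of the 5 were higher in 5xFAD, as were 12.3% and 9.08% of all tested genes. Without WT 66 the shares of all tested genes without overlap and at an unadjusted p under 0.05 were 14.8% and 1.77%. All 10 of the genes here that separated then were higher in 5xFAD, as were 7.34% of all tested genes. Without WT 62, 4 of the 32 genes separated, against 13.96% of all tested genes. Without 5xFAD 64, 3 of the 32 did, against 13.9%. All of these were higher in 5xFAD, as were 7.01% and 6.85% of all tested genes. The median log2 ratio was 0.15 without 5xFAD 65 and 0.46 without 5xFAD 79. Without 5xFAD 65 the log2 ratio shrank by over 1.5 times or turned sign in 20 of the 32 genes and grew by over 1.5 times in 6, and without 5xFAD 79 these numbers were 6 and 10. For 10 of the 32 genes the 95% interval lay inside 1.5-fold up or down, and for 19 it lay inside 2-fold. Over all 16411 tested genes these numbers were 11716 and 14421.

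**Figure D1:**
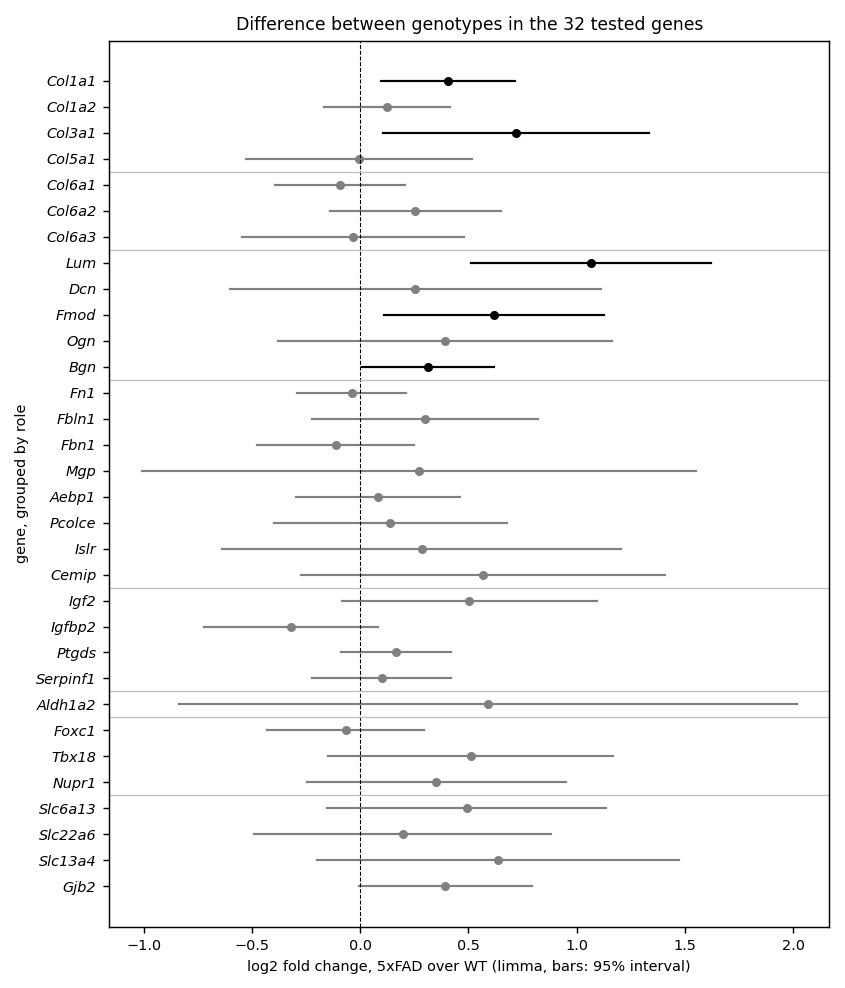
Log2 ratio of 5xFAD to WT for the 32 tested genes, from log2(normalized count + 1) values, with points for the limma estimate and bars for the 95% interval (n = 3 libraries in each group). Black marks the 5 genes at an unadjusted p under 0.05, and 25 of the 32 points lie to the right of 0.

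Fibrillar collagens form the tensile fibres of connective tissue. Per kilobase of exon, Col1a2 and Col1a1, the chains of type I collagen, stood at 31.6 and 25.4 normalized counts over the 6 libraries, Col5a1, a chain of the type V collagen that starts fibrils, at 13.3, and Col3a1, the chain of type III collagen, at 6.89. Col1a1 (ENSMUSG00000001506.11) read 139, 146 and 142 in the WT libraries 62, 63 and 66, against 181, 228 and 164 in the 5xFAD libraries 64, 65 and 79. The WT libraries lay within 1.05-fold of each other and every 5xFAD library was above them. Its mean was 142 ± 3.51 (SD, n = 3) in WT against 191 ± 33.0 (SD, n = 3) in 5xFAD, a log2 ratio of 0.41 ± 0.14 (SE, 95% interval from 0.10 up to 0.72) at an unadjusted limma p of 0.0154. With 1 library left out it kept an unadjusted p under 0.05 in 5 of 6 fits, the exception being without 5xFAD 65.

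Col3a1 (ENSMUSG00000026043.19) read 37.1, 47.3 and 68.4 in the WT libraries 62, 63 and 66, against 78.6, 111 and 63.0 in the 5xFAD libraries 64, 65 and 79. WT 62 was the lowest and 5xFAD 65 the highest, and 5xFAD 79 lay below WT 66, so the groups overlapped. Its log2 ratio was 0.72 ± 0.27 (SE, 95% interval from 0.10 up to 1.34) at an unadjusted limma p of 0.0264, and with 1 library left out it kept an unadjusted p under 0.05 in 2 of 6 fits. Col1a2, the partner of Col1a1 in the type I fibre, read 364, 314 and 454 in the WT libraries 62, 63 and 66, against 437, 379.6 and 407 in the 5xFAD libraries 64, 65 and 79, and WT 66 was the highest library. Its log2 ratio of 0.13 ± 0.13 (SE, 95% interval from −0.17 up to 0.42) was smaller than that of Col1a1, though the intervals of the pair overlap and their difference was not tested. Col5a1 read 78.9, 119.6 and 145 in WT against 134, 93.6 and 108 in 5xFAD, with a log2 ratio of −0.0050 ± 0.23 (SE, 95% interval from −0.53 up to 0.52). Its near-zero value turned positive without WT 63, WT 66, 5xFAD 65 or 5xFAD 79.

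Collagen VI chains build beaded microfilaments next to cells and are made by fibroblasts and mural cells. Col6a1, the highest of the 3 chains per kilobase (35.6 normalized counts), read 157, 148 and 179 in the WT libraries 62, 63 and 66, against 156, 165 and 132 in the 5xFAD libraries 64, 65 and 79. The groups overlapped, and the log2 ratio was −0.094 ± 0.13 (SE, 95% interval from −0.39 up to 0.21). Col6a2 ranged from 67.4 to 78.0 in WT and from 77.4 to 105 in 5xFAD, with a log2 ratio of 0.26 ± 0.18 (SE). Col6a3 ranged from 66.9 to 71.5 in WT and from 47.8 to 90.1 in 5xFAD, with a log2 ratio of −0.033 ± 0.23 (SE) whose sign turned in the edgeR and DESeq2 fits (0.0063 and 0.0087) and without 5xFAD 65 (0.210). The median over the 3 chains was −0.033, with 1 higher and 2 lower values.

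Small leucine-rich proteoglycans bind collagen and set the width and spacing of its fibrils. All 5 had higher values in 5xFAD, with a median log2 ratio of 0.39, and 3 of them had an unadjusted p under 0.05. Lum (ENSMUSG00000036446.6), which encodes lumican, read 23.2, 25.8 and 30.6 in the WT libraries 62, 63 and 66, against 58.9, 70.7 and 43.0 in the 5xFAD libraries 64, 65 and 79. Every 5xFAD library was above every WT library. Its mean was 26.5 ± 3.76 (SD, n = 3) in WT against 57.5 ± 13.9 (SD, n = 3) in 5xFAD, or 2.17 times higher, and the log2 ratio was 1.07 ± 0.25 (SE, 95% interval from 0.51 up to 1.62) at an unadjusted limma p of 0.00167. It kept an unadjusted p under 0.05 with each of the 6 libraries left out in turn, at log2 ratios of 0.91 to 1.26. The gene is low, at 25, 30 and 30 reads in WT and 51, 68 and 43 in 5xFAD. The exact Poisson 95% interval of 5xFAD 79, 31.1 to 57.9 normalized counts for counting error alone, overlaps that of WT 66, 20.7 to 43.7.

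Fmod (ENSMUSG00000041559.8), which encodes fibromodulin, read 46.4, 74.0 and 79.6 in the WT libraries 62, 63 and 66, against 89.0, 94.6 and 120.0 in the 5xFAD libraries 64, 65 and 79. The groups did not overlap, and here 5xFAD 79 was the highest library. Its log2 ratio was 0.62 ± 0.23 (SE, 95% interval from 0.11 up to 1.13) at an unadjusted limma p of 0.0219. With 1 library left out it kept an unadjusted p under 0.05 in 4 of 6 fits and was lowest without WT 62, at 0.382. Bgn, which encodes biglycan, read 162, 163 and 179.7 in the WT libraries 62, 63 and 66, against 209, 246 and 177 in the 5xFAD libraries 64, 65 and 79. The highest WT library lay just above the lowest 5xFAD library, and the log2 ratio was 0.32 ± 0.14 (SE, 95% interval from 0.0100 up to 0.62) at an unadjusted limma p of 0.0442. It kept an unadjusted p under 0.05 in 2 of the 6 fits with 1 library left out, and was 0.197 without 5xFAD 65.

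Dcn, which encodes decorin and had the highest value per kilobase of these proteoglycans (54.0 normalized counts), read 267, 243 and 316 in the WT libraries 62, 63 and 66, against 297, 552 and 214 in the 5xFAD libraries 64, 65 and 79. Only 5xFAD 65 stood apart, at 2.58 times 5xFAD 79, which was the lowest of the 6 libraries. The log2 ratio of 0.26 ± 0.35 (SE, 95% interval from −0.60 up to 1.11) turned to −0.121 without 5xFAD 65. Ogn, which encodes osteoglycin, ranged from 38.7 to 49.0 in WT and from 37.0 to 101 in 5xFAD, again highest in 5xFAD 65 and lowest in 5xFAD 79, and its log2 ratio of 0.39 ± 0.34 (SE) turned to −0.0257 without 5xFAD 65.

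The sequences upstream of 4 of these genes are shown so that the promoters of collagen and proteoglycan genes can be read beside their values. They are the 3 genes at an unadjusted p under 0.05 that have an entry in the RefSeq promoter table, and Col1a2 as the partner chain of Col1a1, chosen after the values were seen. Each is the 250 bases before the annotated start, 5′ to 3′ on the plus strand of GRCm38.p6. Capitals mark matches to TATAAA (a form of the TATA box), CCAAT (the core of the box of that name) and GGGCGG (the GC box), searched on both strands, with no overlap between the matches marked here.
Col3a1, chr1:45311288-45311537: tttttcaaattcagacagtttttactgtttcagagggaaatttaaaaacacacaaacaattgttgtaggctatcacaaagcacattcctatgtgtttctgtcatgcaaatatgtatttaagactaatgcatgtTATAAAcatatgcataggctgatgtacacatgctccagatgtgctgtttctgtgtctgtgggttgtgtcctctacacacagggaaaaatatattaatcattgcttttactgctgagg
Fmod, chr1:134037004-134037253: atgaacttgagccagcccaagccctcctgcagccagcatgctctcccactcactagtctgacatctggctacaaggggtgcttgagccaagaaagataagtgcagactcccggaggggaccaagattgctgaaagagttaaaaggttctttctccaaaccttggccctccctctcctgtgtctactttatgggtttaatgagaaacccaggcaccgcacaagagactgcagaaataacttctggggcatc
Bgn, chrX:73483351-73483600: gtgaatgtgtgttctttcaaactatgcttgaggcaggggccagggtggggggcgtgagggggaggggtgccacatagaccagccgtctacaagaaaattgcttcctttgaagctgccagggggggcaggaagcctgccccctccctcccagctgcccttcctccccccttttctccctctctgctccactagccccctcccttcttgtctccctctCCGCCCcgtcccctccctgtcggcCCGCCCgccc
Col1a2, chr6:4505368-4505617: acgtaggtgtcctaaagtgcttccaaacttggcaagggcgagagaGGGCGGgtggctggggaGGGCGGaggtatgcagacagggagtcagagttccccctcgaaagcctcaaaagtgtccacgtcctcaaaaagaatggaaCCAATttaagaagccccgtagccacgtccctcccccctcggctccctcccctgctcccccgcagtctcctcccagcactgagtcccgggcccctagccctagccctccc

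In these windows, TATAAA began 117 bases before the start of Col3a1, and GGGCGG lay on the reverse strand of Bgn 34 and 10 bases before its start. The Col1a2 window held CCAAT at 109 and GGGCGG at 205 and 188 bases before the start. The Fmod window held none of the 3 letter strings. The GC content differed widely, from 35.2% in Col3a1 to 64.4% in Bgn, with 51.2% in Fmod and 62.0% in Col1a2. Of the 34 genes, 27 had at least 1 window in the table, 35 windows in all. GGGCGG was in 48.6% of those windows and in 32.7% of the 32851 windows of all genes, CCAAT in 25.7% and 33.8%, and TATAAA in 8.57% and 12.4%. A match is a description of the letters and not evidence of binding.

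**Figure D2:**
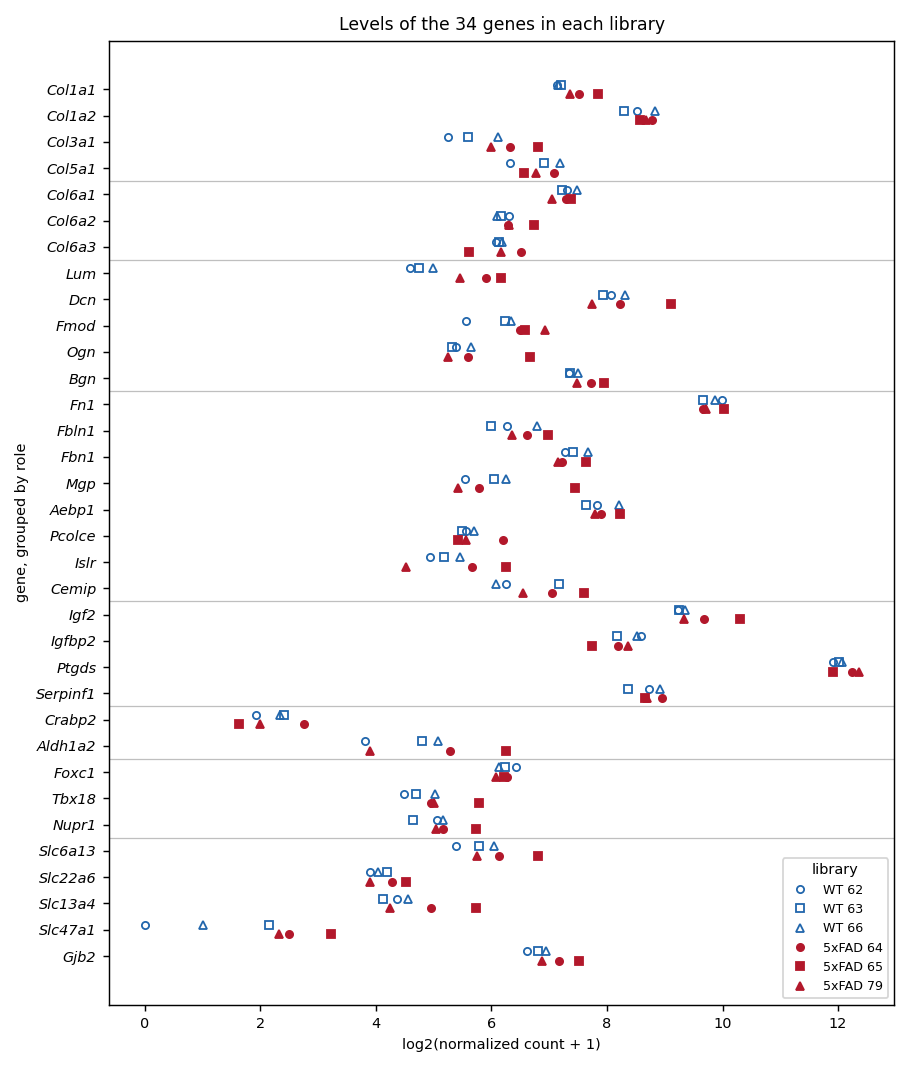
Level of each of the 34 genes in each library as log2(normalized count + 1), grouped by role, with open blue symbols for the 3 WT and filled red symbols for the 3 5xFAD libraries. Levels of different genes are not per length and are not to be compared along the axis. Lum, Col1a1 and Fmod are the tested genes whose red and blue symbols do not overlap, and the red square of 5xFAD 65 is the rightmost symbol in 21 of the 32 tested genes.

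Glycoproteins and assembly factors link collagen and elastic fibres to each other and to cells. Of these 8 genes, 6 had higher and 2 lower values, with a median log2 ratio of 0.20, and none had an unadjusted p under 0.05. Fn1, which encodes fibronectin and is also made by endothelium, read 1015, 812 and 932 in the WT libraries 62, 63 and 66, against 812, 1038 and 841 in the 5xFAD libraries 64, 65 and 79. The groups overlapped almost fully, and the interval of the log2 ratio, −0.039 ± 0.11 (SE, 95% interval from −0.29 up to 0.21), excluded a 1.5-fold change. The sign of this small value turned without WT 62, 5xFAD 64 or 5xFAD 79. Fbn1, which encodes the microfibril protein fibrillin-1, had a log2 ratio of −0.11 ± 0.16 (SE), and Aebp1, a collagen-binding protein, had 0.082 ± 0.17 (SE).

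Mgp, an inhibitor of calcification made by fibroblasts and mural cells, read 45.5, 65.4 and 75.6 in the WT libraries 62, 63 and 66, against 54.3, 174 and 42.0 in the 5xFAD libraries 64, 65 and 79. The library 5xFAD 65 stood 4.14 times above 5xFAD 79, and the WT libraries lay within 1.66-fold of each other. Its log2 ratio of 0.27 ± 0.53 (SE, 95% interval from −1.01 up to 1.55) turned to −0.342 without that library. Islr, a leucine-rich secreted protein of mesenchymal cells, showed the same extremes, from 29.7 to 42.9 in WT and from 22.0 to 74.9 in 5xFAD. Cemip, which depolymerises hyaluronan, read 75.2, 143 and 66.4 in the WT libraries 62, 63 and 66, against 131, 193 and 93.0 in the 5xFAD libraries 64, 65 and 79, with WT 63 above 5xFAD 64 and 79, and a log2 ratio of 0.57 ± 0.36 (SE). Fbln1, which encodes fibulin-1, had 0.30 ± 0.23 (SE) and Pcolce, an enhancer of procollagen cleavage, 0.14 ± 0.24 (SE).

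Secreted factors include growth signals that the meninges supply. Igf2 (ENSMUSG00000048583.17), a growth factor made by meningeal and choroid plexus stroma, read 597, 603 and 649 in the WT libraries 62, 63 and 66, against 822, 1267 and 643 in the 5xFAD libraries 64, 65 and 79. The WT libraries lay within 1.09-fold of each other, 5xFAD 64 and 65 were above them, and 5xFAD 79 was within their range. Its mean was 616 ± 28.6 (SD, n = 3) in WT against 910.4 ± 321 (SD, n = 3) in 5xFAD, with a log2 ratio of 0.50 ± 0.24 (SE, 95% interval from −0.083 up to 1.09) at an unadjusted limma p of 0.0801. The ratio was 0.238 without 5xFAD 65. In the authors' deposited table Igf2 had a log2 fold change of 0.56 as 5xFAD over WT and an unadjusted p of 0.00276, but an adjusted p of 0.9999. Reads of Igf2 may be shared with the overlapping gene models Gm49394 and Igf2os.

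Ptgds, the prostaglandin D synthase of leptomeninges that oligodendrocytes also make, was by far the highest of the 34 genes per kilobase, at 2649.7 normalized counts against 179.7 for Serpinf1, the next. It read 3859, 4144 and 4308 in the WT libraries 62, 63 and 66, against 4830.4, 3832 and 5243 in the 5xFAD libraries 64, 65 and 79. Unlike most of these genes it was lowest in 5xFAD 65 and highest in 5xFAD 79, and its log2 ratio was 0.16 ± 0.11 (SE, 95% interval from −0.090 up to 0.42), or 0.296 without 5xFAD 65 and 0.0697 without 5xFAD 79. The summed oligodendrocyte markers, at 261514, 215451 and 272413 in WT against 285134, 207770.0 and 324988 in 5xFAD, were lowest and highest in the same 2 libraries, and their part in the Ptgds values was not tested. Serpinf1, an anti-angiogenic serpin, had a log2 ratio of 0.10 ± 0.14 (SE). Igfbp2, an IGF-binding protein, was the member with the lowest log2 ratio, −0.32 ± 0.17 (SE), and read 383, 286 and 364 in WT against 292, 213 and 329.9 in 5xFAD.

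Retinoid genes and regulators mark the fibroblast lineage. Aldh1a2, the meningeal enzyme that makes retinoic acid, read 13, 26.7 and 32.7 in the WT libraries 62, 63 and 66, against 38.1, 74.9 and 14.0 in the 5xFAD libraries 64, 65 and 79. Its spread inside 5xFAD, 5.35-fold, was the widest among the tested members, and its log2 ratio was 0.59 ± 0.61 (SE, 95% interval from −0.84 up to 2.02). That ratio was 0.0415 without 5xFAD 65, 0.216 without WT 62 and 1.21 without 5xFAD 79. Crabp2, a retinoic acid carrier, was under the filter at 2.79 to 4.30 in WT and 2.08 to 5.78 in 5xFAD. Foxc1, a forkhead factor that meningeal development requires, read 84.5, 74.0 and 69.4 in the WT libraries 62, 63 and 66, against 76.3, 73.8 and 67.0 in the 5xFAD libraries 64, 65 and 79. It was among the steadiest of these genes, with a log2 ratio of −0.067 ± 0.16 (SE, 95% interval from −0.43 up to 0.30) whose sign turned without WT 62. Tbx18, a T-box factor of fibroblasts and pericytes, had a log2 ratio of 0.51 ± 0.29 (SE) and Nupr1, a stress-responsive chromatin protein, one of 0.35 ± 0.27 (SE).

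Transporters of the arachnoid barrier and the gap junction gene Gjb2, which encodes connexin 26, had higher mean values in 5xFAD in all 4 genes tested, with a median log2 ratio of 0.44. Gjb2 read 97.5, 111 and 121 in the WT libraries 62, 63 and 66, against 142, 182 and 116 in the 5xFAD libraries 64, 65 and 79, so only 5xFAD 79 lay within the range of WT, and the log2 ratio was 0.39 ± 0.18 (SE, 95% interval from −0.0060 up to 0.79) at an unadjusted limma p of 0.0529. Slc6a13, the GABA and taurine transporter GAT2, read 40.9, 54.2 and 65.3 in the WT libraries 62, 63 and 66, against 69.3, 111 and 53.0 in the 5xFAD libraries 64, 65 and 79, with a log2 ratio of 0.49 ± 0.29 (SE, 95% interval from −0.15 up to 1.14). Slc13a4, a sulfate transporter, read 19.5, 16.3 and 22.5 in the WT libraries 62, 63 and 66, against 30.05, 52.0 and 18 in the 5xFAD libraries 64, 65 and 79, with one of 0.64 ± 0.37 (SE, 95% interval from −0.20 up to 1.47). Slc22a6, the organic anion transporter OAT1, was low, from 13.9 to 17.2 in WT and from 14.0 to 21.8 in 5xFAD, with one of 0.20 ± 0.31 (SE). Slc47a1, the organic cation extruder MATE1, was under the filter. It had 0 reads in WT 62, where 3 reads would be 2.79 normalized counts and the exact Poisson 95% interval reaches 3.43. The other WT libraries read 3.44 and 1.02. The 5xFAD libraries read 4.62, 8.32 and 4.00, and no fold change is given here at this depth. Without 5xFAD 65 the log2 ratio was 0.227 for Gjb2, 0.203 for Slc6a13, 0.260 for Slc13a4 and 0.0575 for Slc22a6, each smaller by over 1.5 times.

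High values of the 32 tested genes gathered in a single library. The library 5xFAD 65 had the highest value of the 6 in 21 genes (65.6%), where it was highest in 20.2% of all tested genes. WT 62 had the lowest value in 12 genes (37.5%, against 15.8% of all tested genes), and WT 63 and 5xFAD 79 in 7 each. The spread within 5xFAD was larger than that within WT in 23 of the 32 (71.9%), against 49.6% of all tested genes, with median SDs on the log2 scale of 0.324 in 5xFAD and 0.212 in WT. Over all tested genes those SDs were 0.125 and 0.126. The genes here are lower, with a median of 87.9 normalized counts against 319. Counting error is larger at lower counts, and its part in these spreads was not tested. The summed level of 10 fibroblast markers (Lum, Dcn, Col1a1, Col1a2, Col3a1, Slc6a13, Foxc1, Tbx18, Aldh1a2 and Islr) came to 1020.5, 992 and 1254 in WT against 1316, 1730.4 and 1078 in 5xFAD, in normalized counts. The library 5xFAD 79 was inside the WT range, 5xFAD 64 was just above it and 5xFAD 65 well above it.

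**Figure D3:**
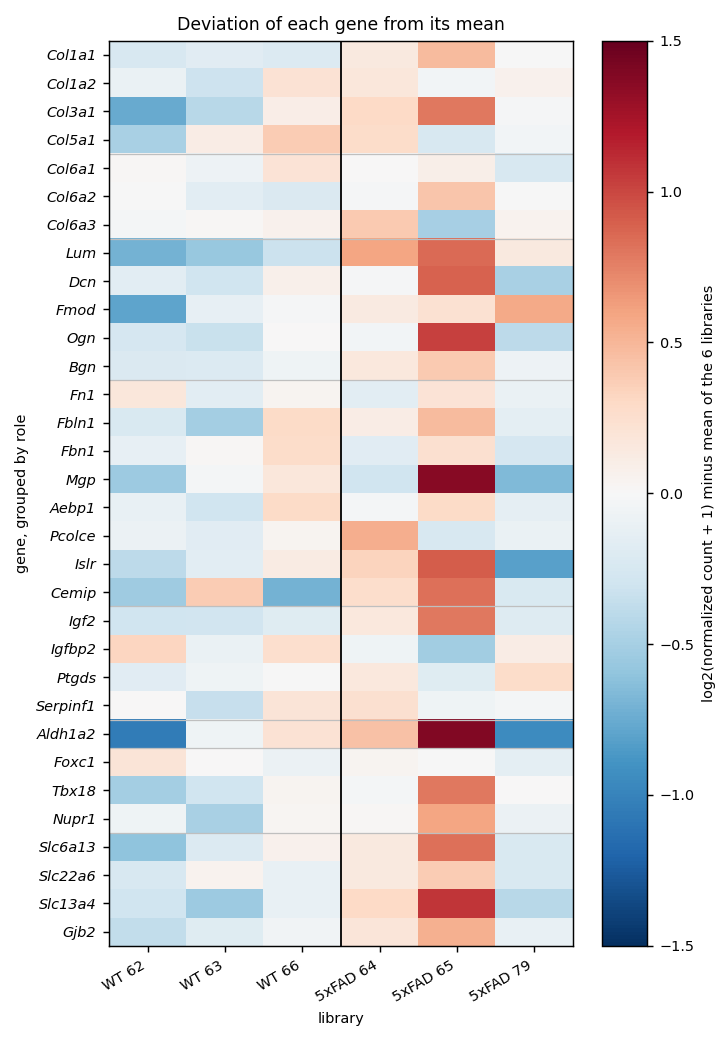
Heat map of the 32 tested genes in the 6 libraries, coloured by log2(normalized count + 1) minus the gene's mean over the libraries, with red above and blue below the mean and a line between the 3 WT and the 3 5xFAD libraries. The column of 5xFAD 65 is the reddest, with exceptions such as Ptgds, Igfbp2, Pcolce and Col6a3, which are lowest there, and the columns of WT 62 and 5xFAD 79 hold the darkest blues.

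Other genes of the matrix had smaller median differences. Over 11 lists of related genes, 151 tested genes outside the 34 had 103 higher and 48 lower values, with a median log2 ratio of 0.048, and limma, edgeR and DESeq2 each called 0 of them. By limma 7 of the 151 were higher and 2 lower at an unadjusted p under 0.05, against 1.27% and 1.05% of all tested genes. Basement membrane genes had 13 higher and 2 lower values of 15 tested, with a median of 0.089. Nid1, which encodes nidogen-1, a linker of laminin and collagen IV, read 356, 327 and 391 in WT against 463, 411 and 461 in 5xFAD, without overlap, and its log2 ratio was 0.32 ± 0.093 (SE, 95% interval from 0.11 up to 0.52). Lamc1, a laminin chain shared by many basement membranes, also did not overlap, with 0.19 ± 0.073 (SE, 95% interval from 0.029 up to 0.35). For 11 of the 15 the interval excluded a 1.5-fold change, as it did for 11716 of all 16411 tested genes.

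Genes of collagen folding and crosslinking had 10 higher and 7 lower values of 17 tested and a median of 0.010. P3h1, a prolyl hydroxylase of collagen, had a log2 ratio of −0.27 ± 0.16 (SE) and P4hb, the shared subunit of the prolyl 4-hydroxylases, one of 0.010 ± 0.062 (SE). Other collagens had 7 higher and 3 lower values of 10 tested and a median of 0.034, with Col11a1, a chain of a minor fibrillar collagen, at 0.16 ± 0.10 (SE). Genes of elastic fibres and TGF-beta latency had 10 higher and 2 lower values of 12 tested and a median of 0.21. Among them Emilin1, an elastic fibre glycoprotein, read 13.9, 14.6 and 14.3 in WT against 18.5, 27.0 and 29.99 in 5xFAD, with a log2 ratio of 0.75 ± 0.30 (SE). TGF-beta ligands, receptors and targets had 10 higher and 2 lower values of 12 tested, and for 11 of the 12 the interval excluded a 1.5-fold change.

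Matrix receptors had 10 higher and 2 lower values of 12 tested, with a median of 0.078. Itga8, an integrin chain, read 12.1, 20.6 and 16.3 in WT against 28.9, 39.5 and 27.0 in 5xFAD without overlap and had a log2 ratio of 0.93 ± 0.30 (SE), Cd44, the hyaluronan receptor, had one of 0.50 ± 0.22 (SE), and Ddr2, a collagen receptor kinase of fibroblasts, one of 0.39 ± 0.17 (SE). Proteases and their inhibitors had 8 higher and 6 lower values of 14 tested, with the metalloprotease Adamts1 at −0.45 ± 0.17 (SE) and the inhibitor Timp2 at 0.0069 ± 0.065 (SE). The other proteoglycans and matricellular proteins had 6 higher and 9 lower values of 15 tested and a median of −0.065. Aspn, which encodes asporin, a close relative of decorin, had a log2 ratio of 0.41 ± 0.34 (SE), and Sparcl1, an astrocyte product, one of −0.068 ± 0.066 (SE). A second list of meningeal fibroblast genes had 7 of 29 under the filter, among them Tbx15, Foxc2, Twist1 and Osr1, and 15 higher and 7 lower values of 22 tested. This list had a median log2 ratio of 0.091, against 0.28 for the 32 tested members. At an unadjusted limma p under 0.05 it had 0 higher and 1 lower, against 1.27% and 1.05% of all tested genes. In it Cyp1b1, a retinoid- and steroid-metabolising cytochrome, read 74.3, 46.5 and 60.2 in WT against 83.2, 119.6 and 65.0 in 5xFAD, highest again in 5xFAD 65, and had a log2 ratio of 0.54 ± 0.25 (SE). Emb, which encodes the adhesion protein embigin, read 1306, 1244 and 1402 in WT against 1196, 1181 and 1208 in 5xFAD, so every 5xFAD library was below every WT library, with a log2 ratio of −0.14 ± 0.061 (SE).

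Markers of the cell types that border the punched area also varied between libraries, and their part in the fibroblast values was not tested. Of 10 cerebellar granule cell genes all 10 passed the filter and had higher mean values in 5xFAD, with summed normalized counts of 5388, 11924 and 6210.5 in WT against 11200.0, 14057 and 7744 in 5xFAD. Gabra6, a receptor subunit of granule cells, read 48.3, 1079 and 70.4 in WT against 817, 1402 and 341 in 5xFAD, so 5xFAD 65 was highest and WT 62 lowest, as for many fibroblast genes, while WT 63 was second highest. Ependymal genes, all 10 tested, had 1 higher and 9 lower values and sums of 1722, 1498 and 2282 in WT against 1598, 2443 and 1116 in 5xFAD, with 5xFAD 65 highest and 5xFAD 79 lowest. Choroid plexus epithelial genes had 9 of 14 tested, with Folr1, Aqp1, Kcnj13, Kcne2 and Cldn2 under the filter, and 1 higher and 8 lower values. Their sums were 7914, 6957 and 10539 in WT against 8386, 6488 and 9229.8 in 5xFAD, highest in WT 66, the library with the high value of Ttr, the main transcript of that epithelium.

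Vessel markers varied less between libraries. Endothelial genes, all 12 tested, had 8 higher and 4 lower values and sums of 8517, 7480.4 and 8911 in WT against 8814, 8376 and 8406 in 5xFAD, and for all 12 the interval excluded a 1.5-fold change. Mural cell genes had 11 of 12 tested and all 11 higher, with a median of 0.12 and sums of 3547, 3630.1 and 3471 in WT against 4065, 3426 and 3846 in 5xFAD. Anpep, an aminopeptidase of pericytes and fibroblasts, read 20.4, 32.7 and 35.7 in WT against 45.1, 47.8 and 46.0 in 5xFAD without overlap, with a log2 ratio of 0.67 ± 0.25 (SE), and Pdgfrb, a receptor of both cell types, had one of 0.12 ± 0.12 (SE). On the log2 scale, the mean deviation of the 10 fibroblast markers from their 6-library mean was −0.43, −0.25 and 0.022 in WT against 0.21, 0.69 and −0.24 in 5xFAD. These 10 are a part of the 34 genes. For all 32 tested members it was −0.27, −0.19 and 0.031 in WT against 0.14, 0.44 and −0.15 in 5xFAD. For the second list of meningeal fibroblast genes it was −0.17, −0.0062 and −0.011 in WT against 0.063, 0.19 and −0.067 in 5xFAD. For the mural list the mean deviation was −0.20, −0.071 and −0.022 in WT against 0.13, 0.21 and −0.040 in 5xFAD. By this mean WT 62 was lowest and 5xFAD 65 highest there too. By the median deviation of the mural list WT 62 was again lowest, but 5xFAD 65 (0.0047) lay below WT 63 (0.014), 5xFAD 79 (0.045) and 5xFAD 64 (0.14). In the mural sums above, 5xFAD 65 was the lowest library. For the endothelial list the mean deviation was −0.044, −0.13 and 0.12 in WT against 0.039, −0.0022 and 0.017 in 5xFAD.

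**Figure D4:**
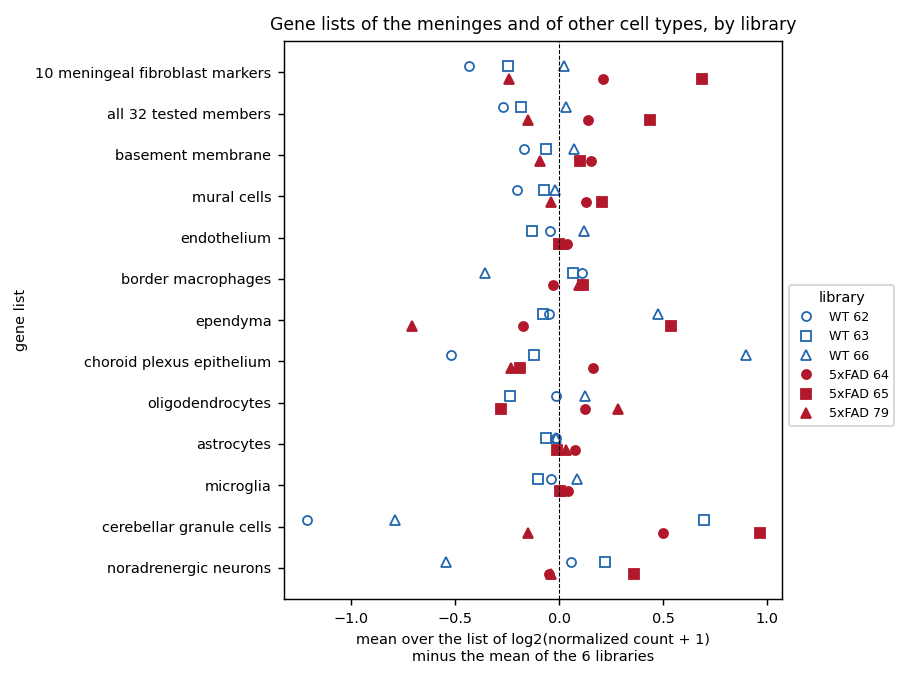
Mean deviation of each gene list from its mean over the 6 libraries, on the log2(normalized count + 1) scale, for the fibroblast genes and for lists of other cell types, with open blue symbols for WT and filled red symbols for 5xFAD libraries. The fibroblast markers span −0.43 (WT 62) to 0.69 (5xFAD 65), the ependymal, choroid plexus and granule cell lists span more, and the endothelial, astrocyte and microglial lists lie close to 0.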

How the data were processed

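Bulk poly-A RNA sequencing of 3 WT and 3 5xFAD locus coeruleus punches was used, grouped by sample titles. STAR, RSEM, DESeq2 and mm39 are named, per the submitters' processing notes. Strand setting and annotation release were not stated in what was used here. The deposited table is named TPM, but its library columns hold a signal, gene counts that the authors divided by 1 size factor per library: 100% of values were whole multiples of 1 step (tolerance 0.001). Per the file headers it also holds the authors' log2 fold changes (their sign turned here to 5xFAD over WT), standard errors, a test score and p-values. The design had assumed normalized values, and the floor was set on normalized counts.

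Genes with at least 10 normalized counts in at least 3 libraries were tested with limma 3.58.1 in R 4.3.3 on log2(normalized count + 1), using a variance trend and robust moderation, with Benjamini-Hochberg adjustment at 0.05. The edgeR 4.0.16 and DESeq2 1.42.0 tests ran on recovered reads as alternatives. In 3 simulated sets of 16411 genes with 200 changed 2-fold, limma recovered 75.8% and made 14.7 false calls per set. The changed genes were drawn from all tested genes. The 75.8% is therefore not a rate for the genes here, which have lower counts and a larger spread between libraries. Gene symbols came from GENCODE, which named 52073 identifiers, exon lengths from GENCODE M21 (GRCm38) and promoter sequences from RefSeq (GRCm38.p6), neither of which is the authors' build. Exons of 8 of the 34 genes overlap another gene model there (Col3a1, Col5a1, Fbn1, Fn1, Igf2, Islr, Pcolce and Tbx18), so their counts are uncertain. Other settings tried were the pseudocount, the floor, quantile normalization, the moderation, and leaving out each library. Genes were given in full by a rule: those at an unadjusted p under 0.05 or without overlap, and the highest of each role group. Igf2, Mgp, Cemip, Slc6a13, Slc13a4, Igfbp2 and Slc47a1 were added after their values were seen, as were Dbh and Ttr, and genes of other lists were named by smallest p or highest level. Col5a1 is also given in full, outside this rule. The 34 genes and all lists were chosen with earlier results of these data known. Figures used Python 3.11.15 and matplotlib 3.10.9.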

Additional observations from a re-analysis of the deposited data

How the results depend on the processing

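No paired analysis was possible because the labels give the groups no shared replicate numbers. Under the 14 alternatives the count of these genes called over all genes stayed at 0, and 420 of 439 single-gene log2 ratios kept their sign. The count of all genes called, 1 in the reported fit, was 4 with DESeq2 and 0 with neither trend nor robust moderation in limma, and ran from 0 to 2 with 1 library left out. The count at an unadjusted p under 0.05 was 3 without that moderation and ran from 2 to 11 with 1 library left out. In the fit without that moderation, 3.26% of all tested genes reached that level. The count of higher values was 16 of 23 under a floor of 50, since fewer genes were tested, and 22 to 27 with 1 library left out. Non-overlapping genes numbered 3 to 12 of 32 with 1 library left out, and fewer libraries overlap less. Of all tested genes, 13.9% to 23.8% did not overlap in those fits. The median log2 ratio of the genes here ran from 0.150 to 0.465 then. Signs reversed in 11 genes, and apart from Col6a3 (0.00626 with edgeR and 0.00870 with DESeq2) only with a library left out. Their log2 ratios then ran from −0.249 to 0.186 for Col5a1, −0.240 to 0.210 for Col6a3, −0.121 to 0.561 for Dcn, −0.0257 to 0.686 for Ogn, −0.148 to 0.0354 for Fn1, −0.342 to 0.669 for Mgp, −0.0467 to 0.246 for Aebp1, −0.102 to 0.294 for Pcolce, −0.0989 to 0.762 for Islr, −0.0477 to 0.221 for Serpinf1 and −0.128 to 0.0116 for Foxc1. The cause of these changes was not tested. No group exceeds 3 libraries, so none was screened for outlying samples. Depth limits Crabp2 and Slc47a1, which were not tested in the reported fit. With no filter on low values all 34 genes were fitted. Of these, 7 had an unadjusted limma p under 0.05, against 2.89% of all genes fitted. The groups did not overlap in 4, against 6.71% of all genes fitted. With 3 libraries a group an exact permutation test cannot go below p = 0.1.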

Other observations

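The insulin-like growth factor axis around Igf2 had 7 higher and 2 lower values of 9 tested genes, with a median log2 ratio of 5xFAD to WT of 0.048, and limma, edgeR and DESeq2 each called 0 of them. By limma 2 of the 9 were higher at an unadjusted p under 0.05, against 1.27% of all tested genes. Igfbp7, a vascular binding protein, read 129, 131 and 141 in WT against 168, 157 and 175 in 5xFAD without overlap, with a log2 ratio of 0.32 ± 0.12 (SE). Igfbp5 read 1631, 2283 and 1857 in WT against 2467, 2444 and 2167 in 5xFAD, with one of 0.31 ± 0.12 (SE). Igfbp2 is lower in 5xFAD in mean value, so the binding proteins did not share a direction.

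Retinoic acid genes other than Aldh1a2 and Crabp2 had 7 higher and 7 lower values of 14 tested and a median of −0.0033. Aldh1a1, an enzyme of the same family, read 5765, 4411 and 6050.2 in WT against 4860.4, 4349.9 and 5279 in 5xFAD, with a log2 ratio of −0.15 ± 0.13 (SE), and Aldh1a3 had one of 0.30 ± 0.29 (SE). Of 10 genes of border macrophages, which live in the meninges and around vessels, 4 passed the filter, 3 with higher and 1 with lower values. Mrc1, their mannose receptor, read 53.9, 60.2 and 41.9 in WT against 53.2, 81.1 and 51.0 in 5xFAD, highest in 5xFAD 65 as for many fibroblast genes, and its log2 ratio was 0.23 ± 0.24 (SE). Stab1 had one of 0.16 ± 0.15 (SE) and Cd163 one of 0.22 ± 0.34 (SE), while F13a1 had one of −0.14 ± 0.23 (SE). Pf4, Lyve1, Ms4a7, Cbr2, Clec10a and Folr2 were under the filter.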
